A study of Mus musculus with 3 samples.

Results

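Mitochondrial fatty acid oxidation and the TCA cycle were followed through the mRNAs of 32 enzymes and subunits, 19 of fatty acid oxidation and 13 of the TCA cycle, in iBATs at 0, 1 and 2 h of isoproterenol (ISO). iBATs are brown adipocytes differentiated from a preadipocyte line of newborn C57BL/6 mouse brown fat that was immortalized with SV40 large T antigen, and ISO is an agonist of all β-adrenergic receptors. The members were named as a list and each was read from probe sets with exactly 1 gene symbol, the brightest on average standing for the gene. Of the 32 members 31 were read, out of 6896 genes read on the arrays, and all 31 had a signal of at least 100 on every array. Cpt1b, the muscle-type carnitine palmitoyltransferase of the outer mitochondrial membrane, was the member not read, because its probe set also carries the symbols Chkb and Gm44502. That shared probe set had signals of 124.4, 124.0 and 115.3 on the 3 arrays in order of time, which cannot be assigned to 1 of the genes.

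The groups were 3: iBATs on day 8 of differentiation with no ISO (0 h), the same cells after 1 h of ISO, and the same cells after 2 h of ISO. All groups are 1 cell line under the same differentiation with insulin and indomethacin, and the labels describe no array left without ISO for 1 or 2 h, so ISO and time in the dish cannot be told apart. Each time point was 1 Affymetrix array of total RNA, read as a MAS5 signal, which is a linear brightness of the probe set. There was no replicate, so no p-value is given. A ratio of 1.74-fold (a log2 ratio of 0.8, the threshold of the study for 1 h) and a smaller step of 1.23-fold (a log2 ratio of 0.3) are sizes and not tests.

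Fatty acids freed from the lipid droplet enter mitochondria as acylcarnitines and are shortened there in cycles of dehydrogenation, hydration, dehydrogenation and thiolysis. The acetyl-CoA that is released enters the TCA cycle through citrate synthase, and the electrons of both pathways feed the respiratory chain that brown fat uncouples to make heat. β-Adrenergic signalling raises the flux through these pathways within minutes in brown adipocytes by setting fatty acids free, and nuclear receptors of the PPAR and ERR families with their PGC-1 coactivators are known to control the genes of the enzymes.

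Markers of the labelled cell type were present. Fabp4 and Adipoq, a fatty acid carrier and a hormone of adipocytes, had 0 h signals of 7490.0 and 4986.4, and Ucp1, the uncoupling protein of brown fat, had 1485.7, 3673.2 and 4166.1 at 0, 1 and 2 h. Of the 8 brown adipocyte markers listed 6 were read. Besides Ucp1, Ppargc1a (given with the regulators) and Cidea (788.1, 786.9 and 1041.1) were higher at 2 h, whereas Cox8b (791.9, 686.5 and 584.8), Cox7a1 (2578.3, 2466.7 and 2270.6) and Prdm16 (107.5, 77.5 and 69.3) were lower, and Dio2 and Elovl3 stayed below 100. None of 7 macrophage and leukocyte markers (highest 93.2) or 6 endothelial markers (highest 9.3) reached 100 on any array. Of 10 muscle markers 1 did, the myoglobin gene Mb (788.1, 669.7 and 574.3 at 0, 1 and 2 h). Of 10 listed preadipocyte and fibroblast markers 7 were read, and the summed signals of the 9 on the array were 13429.9, 13661.0 and 12471.4 at 0, 1 and 2 h. The part of the lower Mb signal in the members' values was not tested. Because whole cultures were measured, fewer cells of a type and less RNA per cell cannot be told apart.

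Stretches of 4 promoters are shown because cyclic AMP is the messenger of β-adrenergic receptors and because 2 members share a promoter. Mdh2 and Ogdh were the members with a full cyclic AMP response element in the window from 250 bases before to 50 after the start, and Hadha and Hadhb, the subunit genes of the trifunctional protein, start 273 bases apart on opposite strands and share 228 bases of their windows. Sequences are those of RefSeq on GRCm38.p6, and 28 of the 32 members had a window in the table, 1 each but for Ogdh with 6, of which the first with the element is shown. The element TGACGTCA is in capitals, from -127 to -120 relative to the start of Mdh2 and from -51 to -44 relative to that of Ogdh. They are chr5:135778476-135778575, plus strand, for Mdh2, chr11:6291500-6291599, plus strand, for Ogdh, and chr5:30155003-30155230, plus strand, for the stretch between Hadha and Hadhb, in which none of the motifs searched was found.
Mdh2: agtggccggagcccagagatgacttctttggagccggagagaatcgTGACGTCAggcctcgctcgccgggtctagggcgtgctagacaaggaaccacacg
Ogdh: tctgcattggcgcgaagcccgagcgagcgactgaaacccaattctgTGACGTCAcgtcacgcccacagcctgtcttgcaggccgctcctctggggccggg
Hadha and Hadhb: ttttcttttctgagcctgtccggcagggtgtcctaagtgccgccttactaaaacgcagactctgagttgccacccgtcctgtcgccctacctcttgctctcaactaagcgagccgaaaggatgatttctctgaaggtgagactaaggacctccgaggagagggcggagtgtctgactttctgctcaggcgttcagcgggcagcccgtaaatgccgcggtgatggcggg

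In these windows TGACGTCA, on either strand, was held by 2 of 28 members (7.1%) against 2.03% of 27025 genes, and its shorter form TGACG, which the full element contains, by 12 of 28 (42.9%) against 23.05% of genes. The nuclear receptor half-site AGGTCA was held by 8 of 28 (28.6%) against 18.13% of genes. Neither the ERR element TNAAGGTCA nor the PPAR-type direct repeat with 1 spacer base (2 copies of AGGTCA) was found in a member's window, and these were held by 1.43% and 0.05% of genes. The members' windows had a median GC content of 60.5%, from 47.0% for Dld to 70.3% for Acadl, against 52.8% over all genes. Their median count of CG dinucleotides, which TGACG and TGACGTCA contain, was 18.0, against 7.0 over all genes, and the motif shares were not matched for it. A gene with several windows, such as Ogdh, was counted if any of them held the motif. No motif was tested for a bearing on the signals.

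The signals of the 31 mRNAs differed little over 2 h. None was 1.74-fold higher or lower at 1 h, when 1.58% of the 6896 genes were at least that much higher and 0.218% lower, and none at 2 h, when 2.73% were higher and 0.812% lower. Over the second hour none passed either, against 0.667% of genes higher and 0.319% lower. At background shares this low, 31 genes would hold few calls, so the count of 0 is not a result about the members. The smaller step of 0.3 was passed by no member at 2 h, against 10.1% of all genes higher and 16.3% lower. At 1 h no member was that much higher (6.06% of genes) and 1, Acads, was that much lower (7.44%). Over the second hour no member passed in either direction, against 6.90% of genes higher and 8.12% lower. The robust spread of the 2 h log2 ratios (a scaled median absolute deviation) was 0.11 among the members, against 0.24 over all genes and 0.20 over the 3505 genes in the members' range of mean signal. Among these 3505 genes, 8.50% passed 0.3 in either direction at 1 h and 18.9% at 2 h, against 1 and 0 of the 31 members. The 3505 genes were dimmer, with a median 0 h signal of 555.4 against 1510.1 for the members, so they are not matched for signal. Among genes as bright as Cs the spread at 2 h was 0.12, near that of the members.

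**Figure D1:**
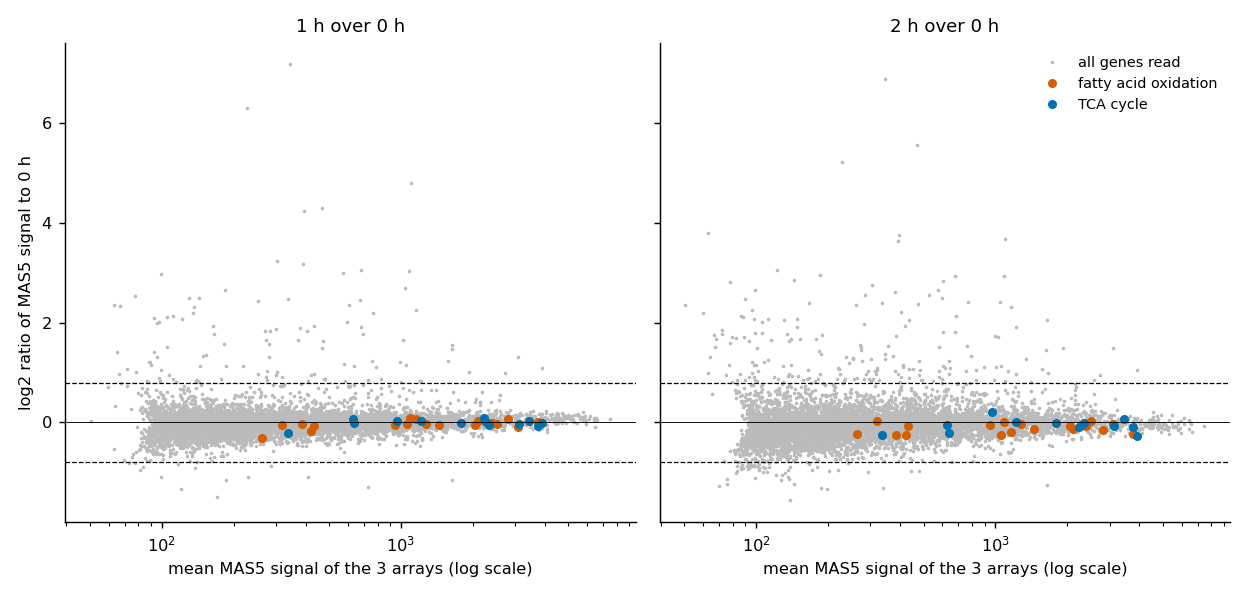
Log2 ratio of MAS5 signal to 0 h (vertical axis) at 1 h (left) and 2 h (right) against the mean signal of the 3 arrays (horizontal axis, log scale) for 6896 genes (grey), the 18 fatty acid oxidation members (orange) and the 13 TCA cycle members (blue). Dashed lines mark log2 ratios of 0.8 in either direction; the members lie between -0.30 and 0.10 at 1 h and between -0.27 and 0.22 at 2 h.

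The small differences leaned downwards at 2 h. Of the 31 members 26 had a lower signal at 2 h than at 0 h (83.9%), against 61.4% of all genes and 56.8% of the genes in their signal range, and with 3 other scalings 25 to 28 members were lower, against 52.9% to 60.0% of genes. The median log2 ratio of the members at 2 h was -0.08, against -0.07 over all genes, and their quartiles were -0.21 and -0.02, against -0.22 and 0.10. The signals of the 31 summed to 55436.8, 54973.4 and 52163.4 in order of time, so that 2 h stood at 94.1% of 0 h, where the sum over all genes read stood at 99.8%. At 1 h 20 members were lower (64.5%), against 55.6% of genes, or 25 after quantile normalization and 24 after cyclic loess, and the median was -0.02 for the members and for all genes, or -0.06 against -0.03 after quantile normalization and -0.05 against -0.0056 after cyclic loess. Over the second hour 21 were lower (67.7%), against 59.3% of genes, or 17 after cyclic loess. At each step 12 members had a lower signal than at the one before (38.7%, against 33.0% of genes), and Idh3a and Dld a higher one (6.5%, against 17.9%).

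The robust spread of log2 ratios among genes of like signal, which holds real change as well as noise, was 0.12 to 0.27 for the members at 2 h. The difference from 0 h exceeded 1 such spread for 11 of 31 members (37.4% of all genes) and 2 spreads for 1, Cs (10.9%). At 1 h it exceeded 1 spread for 3 members, Cpt2, Acads and Ogdh (34.8% of genes), and 2 spreads for none (9.6%).

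**Figure D2:**
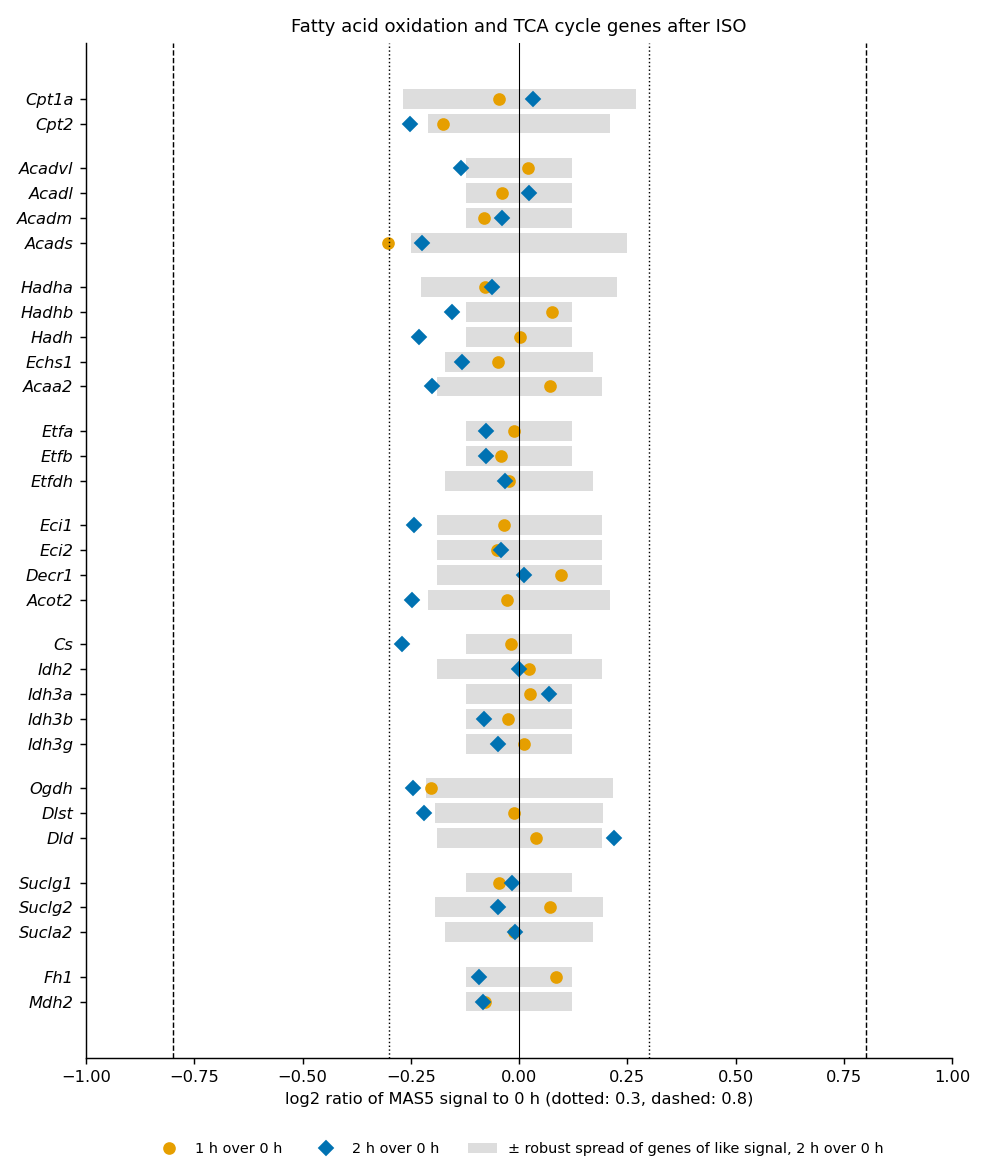
Log2 ratio of MAS5 signal to 0 h (horizontal axis) at 1 h (circles) and 2 h (diamonds) of ISO for the 31 members, grouped by step of the pathway, 1 array per time point. Grey bars span the robust spread of genes of like signal in either direction for 2 h over 0 h, and dotted and dashed lines mark 0.3 and 0.8. Cs lies farthest below 0 at 2 h (-0.27) and Dld farthest above (0.22).

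Entry of fatty acids was represented by the carnitine shuttle. Cpt1a, the liver-type carnitine palmitoyltransferase at which entry is controlled, had signals of 319.9, 309.9 and 326.9 at 0, 1 and 2 h. Cpt2, which rebuilds acyl-CoA on the matrix side, had 463.2, 410.3 and 388.8. By its brightest probe set Cpt1a was thus level over the 3 arrays. Its second probe set, with signals of 279.5, 295.5 and 315.7, was higher at each step. It gave log2 ratios of 0.08 and 0.18 at 1 and 2 h, so the course of Cpt1a depends on the probe set. Cpt2 had a lower signal at each step, and stood at a log2 ratio of -0.25 to 0 h after 2 h, a difference of -16.1%.

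The acyl-CoA dehydrogenases, which begin each cycle, differ in the chain length they accept. Acadvl, for very long chains, had signals of 2161.6, 2192.0 and 1969.9, and Acadl, for long chains, had 2527.0, 2459.2 and 2568.5. Acadm, for medium chains, had 3183.7, 3007.9 and 3097.9. The log2 ratios of these 3 lay between -0.13 and 0.02 at both times. Acads, for short chains, had 297.0, 240.7 and 254.3, so that its log2 ratios were -0.30 and -0.22 at 1 and 2 h. The value at 1 h lies at the smaller step and is short of it after 32 is added to each signal, after the arrays are scaled to the same median, after quantile normalization and after cyclic loess.

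The later reactions of the cycle were lower at 2 h in all 5 genes, with a median log2 ratio of -0.16, or 88.1% of the summed 0 h signal. Hadh, the dehydrogenase for shorter hydroxyacyl chains, had 3937.1, 3943.4 and 3354.5, and Acaa2, a thiolase, had 1189.8, 1249.5 and 1035.2. Hadhb, the thiolase subunit of the trifunctional protein, had 2859.6, 3014.3 and 2567.0. By their main probe sets these 3 were at or above their 0 h signal at 1 h and had lower signals after the second hour. The log2 ratios of 2 h over 1 h were -0.23 for Hadh, -0.27 for Acaa2 and -0.23 for Hadhb. The second probe set of Hadh was already lower at 1 h (-0.07), and the others of Acaa2 gave 0.0018 and -0.0057 at 1 h. Echs1, the short-chain enoyl-CoA hydratase, had 1510.1, 1460.9 and 1377.6. Hadha, the hydratase and dehydrogenase subunit that shares its promoter stretch with Hadhb, had 446.6, 423.1 and 427.6. Hadha and Hadhb therefore lay on opposite sides of 0 at 1 h (log2 ratios -0.08 and 0.08) and were both below 0 h at 2 h (-0.06 and -0.16), all within 2 spreads of genes of like signal. The second bright probe set of Hadhb gave log2 ratios of the other sign, -0.20 and 0.08 at 1 and 2 h.

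**Figure D3:**
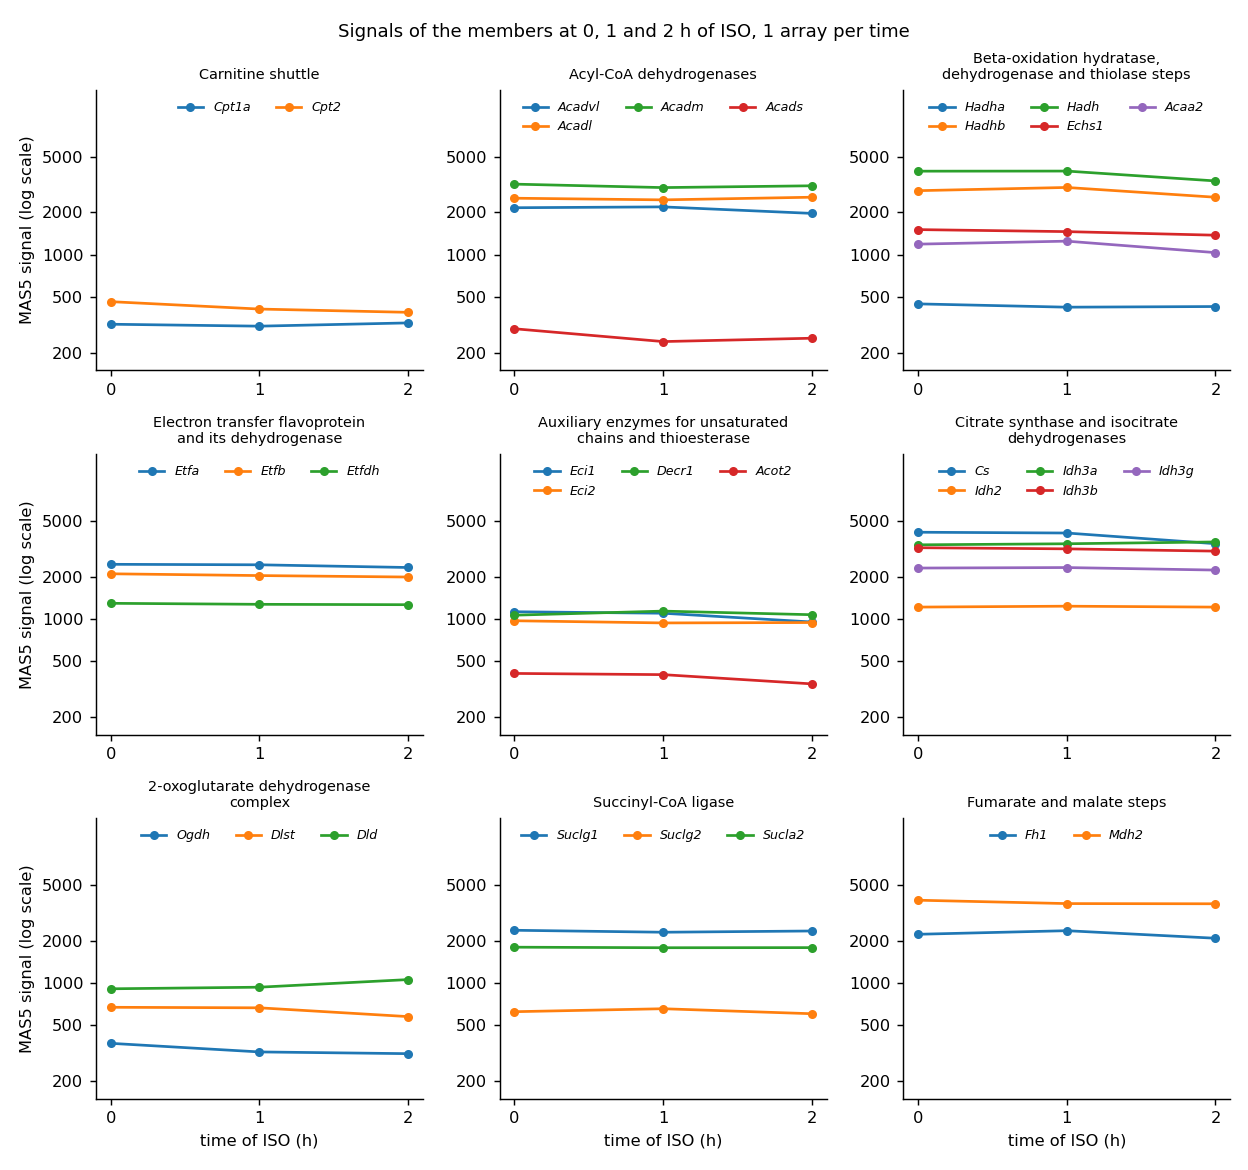
Signals of the 31 members (MAS5, vertical axis, log scale) by hours of ISO (horizontal axis) in 9 panels by step of the pathway, each point being 1 array without an error bar. Of the 31 lines 26 end lower at 2 h than at 0 h. By log2 ratio at 2 h Cs (3434.1) lies farthest below 0 h and Dld (1059.7) farthest above.

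The electrons of the acyl-CoA dehydrogenases pass to the electron transfer flavoprotein and from there to ubiquinone. Its subunit genes Etfa and Etfb had 2449.2, 2429.5 and 2324.3, and 2096.5, 2036.2 and 1988.0. Etfdh, the ubiquinone oxidoreductase, had 1291.8, 1270.7 and 1262.8. All 3 had a lower signal at each step, and their log2 ratios at 2 h lay between -0.08 and -0.03.

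Auxiliary enzymes deal with double bonds and with excess acyl-CoA. The isomerase genes Eci1 and Eci2 had 1125.0, 1097.8 and 951.0, and 970.4, 936.4 and 942.5. Decr1, the dienoyl-CoA reductase, had 1063.1, 1136.9 and 1071.5. Acot2, a mitochondrial acyl-CoA thioesterase, had 409.0, 401.0 and 344.6. Eci1 and Acot2 were lower at 2 h (log2 ratios -0.24 and -0.25), whereas Eci2 and Decr1 were near 0 (-0.04 and 0.01). The 18 fatty acid oxidation members had median log2 ratios of -0.04 and -0.10 at 1 and 2 h, with 15 of 18 lower at 2 h.

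The 13 members of the TCA cycle had median log2 ratios of -0.01 and -0.05 at 1 and 2 h, with 11 of 13 lower at 2 h. The median at 2 h was -0.09 with the median over the probe sets of each gene. It was -0.12 over the 8 members left without suffixed probe sets, those whose names end in _s_at, _x_at or _a_at. Cs, citrate synthase, which joins acetyl-CoA to oxaloacetate, had 4144.8, 4091.5 and 3434.1. Its log2 ratio of -0.27 at 2 h was the farthest from 0 among the 31 and arose in the second hour (-0.25 for 2 h over 1 h). The subunits of the NAD-dependent isocitrate dehydrogenase were closer to 0 by their brightest probe sets. Idh3a, the catalytic subunit, had 3371.6, 3430.4 and 3534.9, and Idh3b and Idh3g had 3214.9, 3155.7 and 3040.3, and 2303.5, 2322.3 and 2228.1. For Idh3a this rests on 1 of 3 probe sets, with a log2 ratio of 0.07 at 2 h, since the other 2 gave -0.73 and -0.39 and the median of the 3 was -0.39. Idh2, the NADP-dependent enzyme, had 1214.2, 1232.5 and 1213.9, so that its signals at 0 and 2 h differed by 0.02%.

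The 2-oxoglutarate dehydrogenase complex held members on both sides of 0. Ogdh, which decarboxylates 2-oxoglutarate, had 372.5, 323.5 and 314.4, and Dlst, the succinyltransferase, had 672.8, 666.9 and 577.4. Dld, the lipoamide dehydrogenase that the complex shares with pyruvate dehydrogenase and with branched-chain oxoacid dehydrogenase, had 911.0, 935.4 and 1059.7. At 2 h Ogdh and Dlst were lower by log2 ratios of -0.24 and -0.22 and Dld was higher by 0.22, the highest of the 31. Each exceeded 1 spread of genes of like signal and none reached 2.

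Of the remaining steps, succinyl-CoA ligase was level and the fumarate and malate steps stood at 94.1% of their summed 0 h signal at 2 h. Suclg1, the common subunit of succinyl-CoA ligase, had 2379.3, 2303.7 and 2351.3, and its partners Suclg2, of the GTP-forming enzyme, and Sucla2, of the ATP-forming one, had 625.8, 657.0 and 605.3, and 1802.6, 1786.7 and 1789.9. Their log2 ratios at 2 h were -0.02, -0.05 and -0.01. Fh1, fumarase, had 2227.7, 2362.6 and 2087.5, and Mdh2, malate dehydrogenase, had 3895.5, 3685.5 and 3673.7. The lower signal of Fh1 came in the second hour (log2 ratio of 2 h over 1 h -0.18) and, by its main probe set, that of Mdh2 in the first. The second bright probe set of Mdh2 gave log2 ratios of -0.02 at 1 h and -0.07 for 2 h over 1 h, so the timing for Mdh2 depends on the probe set. Mdh2 and Ogdh were the members with a full cyclic AMP response element in the window. By the main probe sets, Mdh2 had log2 ratios of -0.08 at both times and Ogdh of -0.20 and -0.24 at 1 and 2 h, so that neither was above 0 h.

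The 31 members had 62 probe sets with 1 symbol, of which 45 reached 100, and 11 members were read by more than 1. For 9 of these the log2 ratios at 2 h lay less than 0.3 apart. The 3 probe sets of Acaa2 gave -0.14 to -0.20 and the pair for Hadh gave -0.20 and -0.23. For Cs the main probe set and a second bright one gave -0.27 and -0.23, and the third, with signals of 1036.0, 1075.6 and 1023.3, gave -0.02. For Idh3a the probe sets disagreed. The bright one stayed level (0.07 at 2 h), whereas a dimmer one had 292.2, 214.6 and 175.8, which gives -0.73 at 2 h, and another had 206.8, 178.0 and 158.0 (-0.39). For Decr1 the dimmer probe set had 138.5, 108.5 and 102.7 (-0.43), against 0.01 for the bright one. The probe sets of Hadhb lay on opposite sides of 0, with -0.16 at 2 h for the main one and 0.08 for the other, whose signals were 2658.3, 2314.4 and 2814.0. Those of Idh3b did too, with -0.08 at 2 h for the main one and 0.18 for the other, whose signals were 1807.6, 2008.2 and 2053.5. For Idh3g the main one gave -0.05 and the other 0.03. No probe set that reached 100 passed a log2 ratio of 0.8 at any time.

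**Figure D4:**
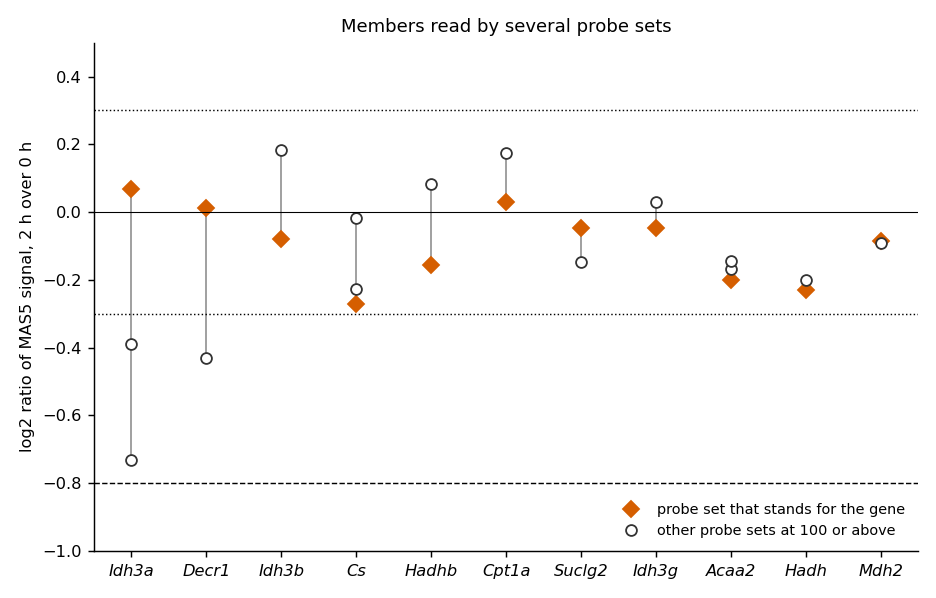
Log2 ratio of MAS5 signal, 2 h over 0 h (vertical axis), for each probe set that reached 100 in the 11 members with more than 1 (horizontal axis). Orange diamonds are the probe sets that stand for the genes, open circles the others, dotted lines 0.3 and the dashed line -0.8; Idh3a has the widest range, from -0.73 to 0.07.

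Other mitochondrial enzymes of the same pathways were listed too, 14 in all, of which 13 were on the array and 12 were read. None passed a log2 ratio of 0.8 at either time, beside 2.73% of all genes higher and 0.812% lower at 2 h. The medians of the 12 were -0.01 and -0.13 at 1 and 2 h. At 2 h 2 of the 12 were lower by at least 0.3, beside 16.3% of all genes. These were Acad9, an acyl-CoA dehydrogenase needed for assembly of complex I, with 168.4, 173.3 and 114.8, and Hsd17b10, a mitochondrial hydroxyacyl-CoA dehydrogenase, with 965.0, 860.1 and 781.7. The 4 succinate dehydrogenase subunits Sdha, Sdhb, Sdhc and Sdhd had log2 ratios of -0.12, -0.21, -0.23 and -0.14 at 2 h. Slc25a20, the carnitine-acylcarnitine carrier, had 597.2, 615.5 and 640.9.

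Of 11 listed regulators of fatty acid oxidation 8 were read. Of these 1 was at least 1.74-fold higher at 1 h and 4 at 2 h, beside 1.58% and 2.73% of all genes, and none was lower. Pdk4, the kinase that holds back pyruvate dehydrogenase, had 620.6, 1729.7 and 2587.5, and Ppargc1a, a coactivator of mitochondrial genes, had 293.4, 487.6 and 1029.9, so that the log2 ratios at 2 h were 2.06 and 1.81. Ppara, the nuclear receptor PPARα, had 217.1, 365.5 and 393.0 (0.86), and Ppargc1b, a relative of Ppargc1a, had 840.6, 972.0 and 1489.2 (0.83). Esrra, which encodes the nuclear receptor ERRα, had 210.0, 213.0 and 209.9. The regulators were listed with earlier results of these data known, and the paper names Pdk4 and Ppargc1a among the genes induced by ISO. On the same arrays the 31 members read lay between log2 ratios of -0.27 and 0.22 at 2 h. A link between regulators and members was not tested.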

How the data were processed

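The authors labelled RNA of differentiated iBATs (day 8), hybridized it to Affymetrix mouse genome arrays, 1 at 0, 1 and 2 h each, and deposited 1 linear intensity per probe set and array, computed with MAS5. The deposited intensity of each array has a mean of 100.0 after 2% of probe sets is trimmed from each end. The filter of the methods on absent calls and low values is not applied in the table. The number of arrays limits the precision, and no error can be given.

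Of 45101 probe sets, 34958 carried 1 symbol in the archive's annotation, 932 several and 9211 none. RefSeq gene identifiers matched 34754 of those with 1 symbol and changed no symbol. Probe sets below a signal of 100 on all 3 arrays were left out, the brightest by mean over the arrays stood for its gene, and log2 ratios were taken without further scaling. The robust spread is the scaled median absolute deviation in 20 bins of mean signal. Every member read is named. Other genes are named where they pass the threshold, at most 4 a list, and further names were picked with their values in view. The members, lists and thresholds were chosen with earlier results of these data known, and the comparison with genes in the members' range of signal was added after the values were seen. Python 3.11.15, numpy 2.4.6, pandas 2.3.3, matplotlib 3.10.9, R 4.3.3 and limma 3.58.1 (cyclic loess) were used, and the counting was tested on simulated data. The alternatives were other filters, floors, scalings, probe sets and a threshold of 2-fold.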

Additional observations from a re-analysis of the deposited data

How the results depend on the processing

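No member passed a log2 ratio of 0.8 in any of the 3 comparisons under any of the 12 alternatives, and under the 10 that give a median, the median over all members read in each comparison and those over the fatty acid oxidation and the TCA cycle members at 2 h over 0 h kept their sign and moved by less than 0.1. The medians of these subsets at 1 h were not recomputed. At 2 h the fatty acid oxidation median ran from -0.15 (quantile normalization) to -0.09 (arrays scaled to the same median). The TCA cycle median ran from -0.12 (suffixed probe sets, _s_at, _x_at and _a_at, left out) to -0.04 (arrays scaled to the same median). At 2 h over 0 h the median over the members ran from -0.13, with suffixed probe sets left out (25 members), to -0.07, with arrays scaled to the same median. The count past the smaller step of 0.3 at 1 h was 1 (Acads). It was 0 with 32 added to each signal, with arrays scaled to the same median, after quantile normalization and after cyclic loess, and 3 with any kept probe set, when Decr1 and Idh3a joined. At 2 h it was 0, or 1 (Idh3a) with the median over kept probe sets or with suffixed probe sets left out, and 2 (Idh3a and Decr1) with any kept probe set. Of 912 single log2 ratios set against the reported ones, 901 moved by less than the spread of genes of like signal and 11 by more, all through the choice of probe set, in Idh3a, Decr1, Hadhb and Idh3b. Each of the other filters and the floor of 100 gave 93 of the 901, which could not differ from the reported values. No paired analysis was possible because each time point has 1 array. Differences of the size seen here lie near the spread among genes of like signal, and 1 array per time point does not tell them from noise.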

Other observations

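Enzymes outside the mitochondrial pathways were also read. Of 7 peroxisomal or cytosolic counterparts, 1 was at least 1.74-fold higher at 2 h (2.73% of all genes). This was Acaa1b, a peroxisomal thiolase, with signals of 735.0, 1128.8 and 1508.1 at 0, 1 and 2 h, a log2 ratio of 1.04 at 2 h. Acaa1a, its paralog, had 99.8, 108.9 and 102.4, and the probe sets that carry both symbols were not read, so the values of these near-identical genes are uncertain. Idh1, the cytosolic isocitrate dehydrogenase, had 2467.8, 2379.3 and 1967.6, a log2 ratio of -0.33 at 2 h, whereas Aco1 and Mdh1, of cytosolic aconitase and malate dehydrogenase, had 0.06 and 0.02.

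Of 8 genes of pyruvate entry and anaplerosis that were read, none passed a log2 ratio of 0.3 at 1 or 2 h. At 2 h 10.1% of all genes were at least that much higher and 16.3% lower. Pdhb, a subunit of pyruvate dehydrogenase, had 4251.6, 4832.1 and 4446.5, and Pcx, pyruvate carboxylase, had 1678.3, 1463.4 and 1500.9. Of 11 housekeeping genes none was 1.74-fold higher or lower, beside 2.73% of all genes higher and 0.812% lower at 2 h. By at least 0.3, 1 of the 11 was lower at 1 h (Polr2a, -0.34) and 1 at 2 h (Gusb, -0.74), beside 7.44% and 16.3% of all genes. Gusb had signals of 150.4, 130.1 and 90.0. The median log2 ratios of the 11 were 0.02 and -0.03 at 1 and 2 h, and 1 of them, Sdha, is also among the enzymes above.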
